A study of Rattus norvegicus with 18 samples.

Results

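The genes described here encode the proteasome: every gene whose name on the array is Psm, a letter from a to g and a number. These were 45 of the 35287 gene names on the array, measured by 54 probes, and a gene with several probes was represented by its brightest probe. Genes were taken by name alone, with earlier results of these data known, and the probe by its brightness over all 18 arrays. The members were the 7 genes of the alpha ring, 7 constitutive genes of the beta ring, the 3 immunoproteasome subunits Psmb8, Psmb9 and Psmb10, the thymus subunit Psmb11, 6 ATPases and 11 other subunits of the 19S cap, 3 chaperones of the base of that cap (Psmd5, Psmd9 and Psmd10), 4 activators (Psme1 to Psme4) and 3 assembly chaperones of the core (Psmg1, Psmg2 and Psmg4). A gene was tested if at some time-point all 3 arrays read it well above background, which left 44 of the 45 members. Psmb11, which belongs to cortical thymus epithelium, was well above background on only 2 arrays and was not tested.

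The proteasome is a barrel of stacked alpha and beta rings, the 20S core, closed at its ends by a 19S cap that binds ubiquitylated proteins, unfolds them with a ring of ATPases and feeds them to the proteolytic sites of the beta ring. Interferon gamma induces Psmb8, Psmb9 and Psmb10, which leukocytes also make without it, and these take the places of Psmb5, Psmb6 and Psmb7 in newly built cores and shift the cut peptides towards those presented on MHC class I. Psme1 and Psme2 form the 11S activator of the same pathway, while the transcription factor Nfe2l1 raises the constitutive subunits when proteasome activity falls short. In injured nerve the ubiquitin and proteasome system takes part in the breakdown of cut axons and in the turnover of Schwann cell proteins.

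RNA came from proximal sciatic nerve, 0.5 cm per sample, of adult male Sprague-Dawley rats of 180-220 g whose left sciatic nerve had been resected over 1 cm under trichloroacetaldehyde monohydrate, magnesium sulfate and sodium pentobarbital, as the labels give for all groups including 0 h. The groups were the times of collection after injury, 0, 0.5, 1, 3, 6 and 9 h, with 3 arrays each and 18 in all. Neither the labels nor the methods say whether an array holds 1 rat or a pool, so P-values measure the spread between these samples only. No sham-operated nerve was used here. Values are log2 signal relative to the 75th percentile of the same array, and a gene was called where limma, fitted to all 32109 tested probes, gave P-values under 0.01 before and 0.05 after Benjamini-Hochberg adjustment.

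Some features of the arrays bear on the values below. Of 3 scan days, the first held the 0 h and 0.5 h arrays, the second held all of 1 h, 3 h and 6 h with 2 of 9 h, and the third held replicate 3 of 9 h, so from 1 h on the scan day and the time since 0 h cannot be told apart. Each slide held arrays of a single time-point, so slide and time cannot be told apart in any comparison, also within a scan day. Between 65.9% and 93.5% of the spots of an array were well above background, with the highest share in replicate 1 of 6 h, and replicates of a time-point correlated at r = 0.982 to 0.995 over probes. Replicate 3 of 1 h stood apart for the proteasome: 42 of 44 members lay below their 0 h mean there, by a median of 0.25, against 33 of 44 in replicate 1 (median -0.06) and 25 of 43 in replicate 2 (median -0.02). All 8 Schwann cell markers, Sox10 among them, were well above background on all 18 arrays. In bulk tissue, fewer cells of a type and less RNA per cell cannot be told apart.

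Across the time course the proteasome genes differed little from 0 h, with a median below 0 at 0.5 h and 1 h and above 0 at 9 h. Over the 6 time-points 12 of 44 members were called by the F-test, beside 34.2% of all probes, and the change of a member at any time against 0 h stayed between -0.49 and 0.85. At 0.5 h 4 members were called lower and none higher, beside 1.67% and 4.04% of all probes and 3.06% and 2.93% of the 10703 brightest. The 4 were Psmb5, Psmb6, the ATPase Psmc4 and the ubiquitin receptor Psmd4, with differences from -0.31 to -0.39. A second, dimmer probe of Psmc4 differed by -0.04 (adjusted P-value 0.79) and did not show this fall. The median over the 44 members was -0.15, and 25 of them lay below 0 h on all 3 arrays (4 above), while all probes had a median of 0.00. Of all probes 14.8% lay below and 17.9% above in this way, and of the 10703 brightest 23.9% and 11.3%. The median of these brightest probes, to which all 44 members belong, was -0.07. No member was called when replicate 2 of 0 h, or either replicate 1 or replicate 3 of 0.5 h, was left out, or within the first scan day alone, and 1 was without replicate 3 of 0 h. None of the 44 was called at 1 h, beside 3.42% of all probes higher and 1.93% lower. The median was -0.12 there, and -0.05 over the 10703 brightest probes. On the single arrays of 1 h the median of the members was -0.06, -0.02 and -0.25, lowest in replicate 3. None was called at 3 h, beside 7.2% higher and 6.41% lower, with a median of 0.03. At these times 6 and 4 members reached an unadjusted P-value under 0.05 in limma.

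At 6 h 3 members were called higher and 2 lower, beside 12.2% and 12.4% of all probes, with a median of 0.02. The count of 5 fell to between 1 and 3 when any array of 0 h or 6 h was left out. At 9 h 9 members were called higher than at 0 h and 1 lower, beside 15.6% and 14.8%. The median was 0.10, and 16 members lay above all arrays of 0 h (2 below), beside 28.6% of all probes above and 24.5% below. The count of 10 called fell to 5 without replicate 2 of 0 h, to 6 without replicate 1 of 9 h and to 4 without its replicate 3. All 44 members belong to the brightest 10703 of the 32109 tested probes, and these bright probes had a median of -0.12 at 9 h, with 13.7% called higher and 25.3% lower, and 20.4% above all arrays of 0 h and 36.4% below. With other scalings the counts at 9 h were 18 to 21 higher and none lower (quantile normalization, the deposited matrix and cyclic loess), 2 higher and none lower (normexp) and none higher and 1 lower (arrays shifted to their median). The median of the members at 9 h was 0.24 with quantile normalization and 0.25 with cyclic loess, which remove trends with brightness, but -0.08 when arrays were shifted to their median, a scale on which the median of all probes itself moved to -0.15.

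Most calls came between 1 h and 9 h. Against 1 h, 20 of the 44 members were called higher at 9 h and none lower, beside 11.8% and 13.4% of all probes and 14.8% and 21.7% of the 10703 bright ones. The median was 0.25, 26 members lay above all 3 arrays of 1 h and none below (19% and 21.2% of all probes, 21.6% and 29.9% of the bright ones), and the median stayed between 0.23 and 0.34 under the 5 other scalings. The count of 20 fell to 8 with normexp background correction and to 8 with the shift to the median. At 3 h 2 members, Psmb2 and Psma7, were called higher than at 1 h (5.76% of all probes) and none lower (4.45%), and at 6 h 8 were higher (11.8%) and none lower (12.2%). The first of these counts fell to 0 or 1 without many single arrays, and the second fell to between 2 and 5 without replicate 1 or 3 of 1 h or any array of 6 h. Both comparisons of 9 h share the same 3 arrays, and the count against 1 h fell to 13 without replicate 3 of 1 h, to 12 without replicate 3 of 9 h and to 6 within the second scan day. The heat map of the members shows these differences and the array of 1 h that stood apart.

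**Figure D1:**
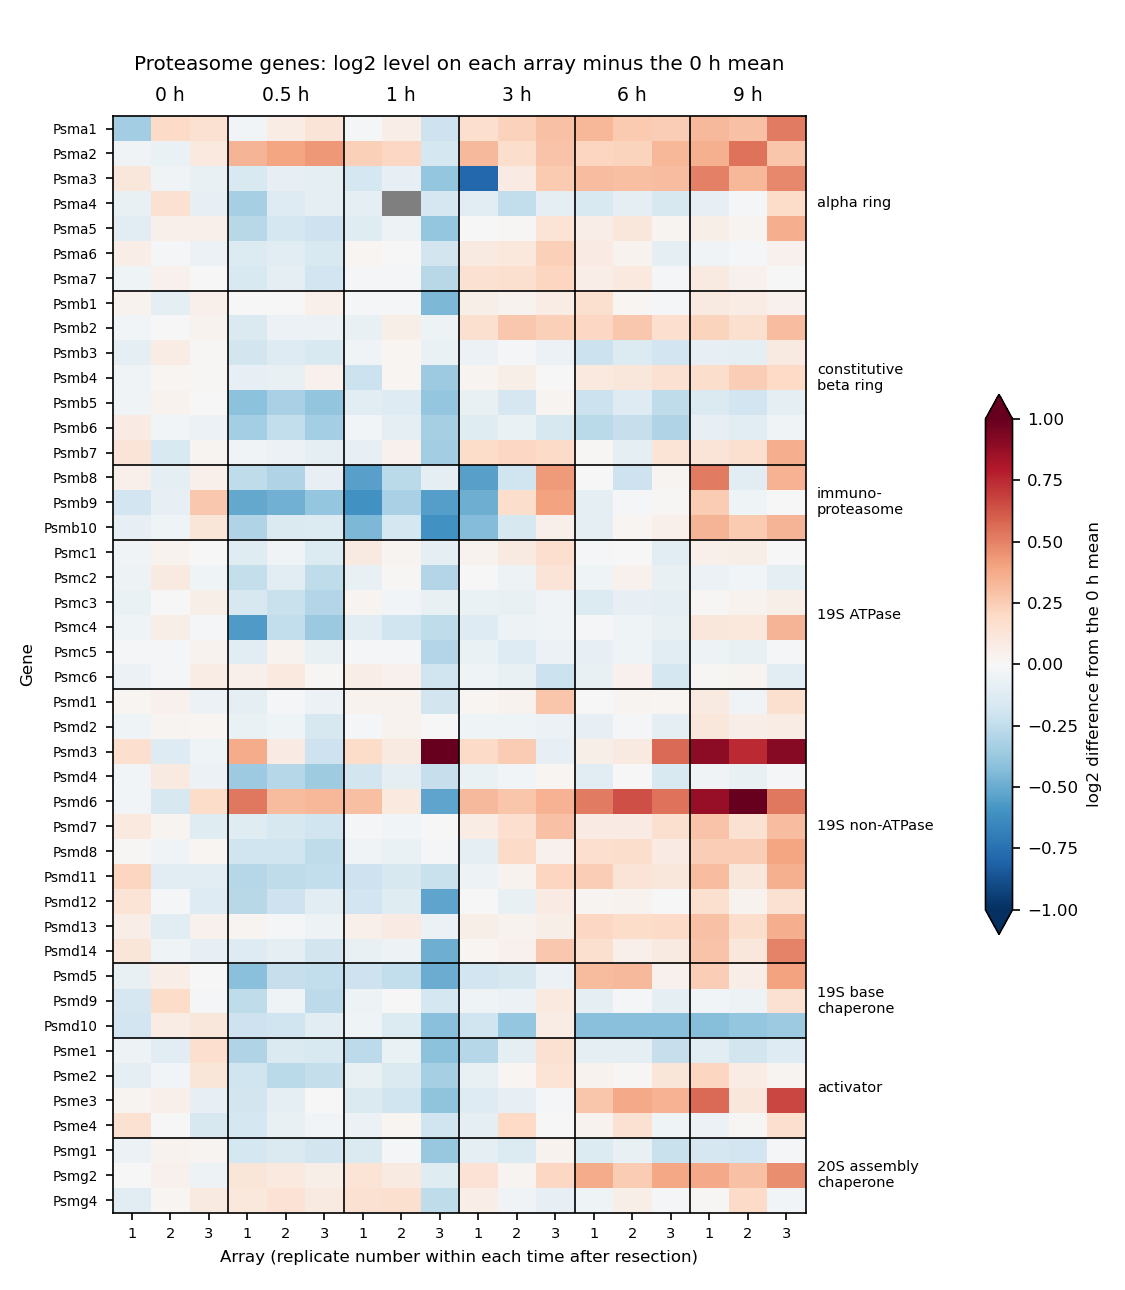
Log2 level of each tested proteasome gene (rows, grouped by role) on each of the 18 arrays (columns, by hours after resection) minus the mean of the 3 arrays at 0 h. Red is higher and blue lower than at 0 h, colours end at 1 and -1, and the grey cell is an outlier spot of Psma4 that was left out. Psmd3 and Psmd6 reach the strongest red at 9 h, as does Psmd3 in replicate 3 of 1 h, the 3 immunoproteasome rows are blue at 0.5 h and 1 h, and replicate 3 of 1 h is blue in 42 of 44 rows.

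The means of the 3 immunoproteasome subunits lay below 0 h at 0.5 h and 1 h and above it at 9 h, and 2 of the 3, Psmb9 and Psmb10, were called higher at 9 h than at 1 h, beside 11.8% of all probes and 14.8% of the 10703 brightest. Psmb8 and Psmb9 lie in the MHC class II region, with array probes at chr20:4787980-4788039 and chr20:4806341-4806400, and the Psmb10 probe lies at chr19:35777711-35777770 (all rn4). The region around the transcription start is shown for those immunoproteasome genes, and for Psme2, whose promoter held GAAANNGAAA on either strand, the core of the interferon-stimulated response element, with the match in capitals. Each stretch runs 5′ to 3′ from 130 bases before the start to 20 bases from it, in RefSeq's annotation of GRCr8, at chr20:4657012-4657161, minus strand, for Psmb8, chr19:50743273-50743422, minus strand, for Psmb10 and chr15:33052732-33052881, minus strand, for Psme2.
Psmb8: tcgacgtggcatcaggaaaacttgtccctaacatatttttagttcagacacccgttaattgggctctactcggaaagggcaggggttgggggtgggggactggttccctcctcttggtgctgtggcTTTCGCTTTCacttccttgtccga
Psmb10: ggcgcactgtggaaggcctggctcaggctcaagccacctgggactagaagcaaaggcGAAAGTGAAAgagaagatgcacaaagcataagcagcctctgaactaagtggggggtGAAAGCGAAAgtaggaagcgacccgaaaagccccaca
Psme2: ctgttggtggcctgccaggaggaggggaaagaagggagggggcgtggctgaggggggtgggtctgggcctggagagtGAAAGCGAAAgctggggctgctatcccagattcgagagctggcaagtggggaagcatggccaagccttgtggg
The match began at position -4 from the start in Psmb8 (on the opposite strand), at -73 and -17 in Psmb10 and at -53 in Psme2. Of the 40 members with a promoter in the RefSeq table, 7 held this core within 250 bases before to 50 bases after the start (17.5%), beside 3.92% of all 33469 promoters. The others were Psma4, Psmb3, Psmd7 and Psmg4. Psmb9 held none, nor did it hold GGGNNTTTCC, a core of NF-kB sites, which among the members was found only in Psmd2 (1.53% of all promoters).

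Psmb10, which takes the place of Psmb7, read 3.50, 3.53 and 3.70 on the 0 h arrays, 3.27, 3.43 and 3.44 on those of 0.5 h, 3.13, 3.40 and 2.97 on those of 1 h, 3.14, 3.41 and 3.63 on those of 3 h, 3.48, 3.60 and 3.63 on those of 6 h, and 3.92, 3.84 and 3.91 on those of 9 h. All 3 arrays of 9 h thus lay above every other array, and those of 0.5 h and 1 h lay below 0 h. From 1 h to 9 h it rose by 0.72 ± 0.13 (SE, 1.65-fold, limma adjusted P-value 0.00089), a call kept under all 36 alternatives tried. Against 0 h the difference at 9 h was 0.31 ± 0.13 and was not called (adjusted P-value 0.0676).

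Psmb9, which takes the place of Psmb6, read 2.63, 2.74 and 3.08 on the 0 h arrays, 2.31, 2.33 and 2.43 on those of 0.5 h, 2.21, 2.50 and 2.27 on those of 1 h, 2.33, 2.99 and 3.22 on those of 3 h, 2.73, 2.80 and 2.83 on those of 6 h, and 3.07, 2.77 and 2.81 on those of 9 h. The arrays of 0.5 h and 1 h lay below all of 0 h, those of 6 h and 9 h lay among them, and at 3 h the 3 arrays spread over most of the range. The rise from 1 h to 9 h was 0.56 ± 0.18 (1.47-fold, adjusted P-value 0.0366), but this call was lost when any of 13 single arrays was left out, with normexp and with the shift to the median. At 9 h the difference from 0 h was 0.07 ± 0.18 (adjusted P-value 0.799).

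Psmb8, which takes the place of Psmb5, had the largest standard error of the 3. It read 2.10, 1.96 and 2.10 on the 0 h arrays, 1.80, 1.76 and 1.97 on those of 0.5 h, 1.51, 1.78 and 1.95 on those of 1 h, 1.51, 1.85 and 2.48 on those of 3 h, 2.06, 1.84 and 2.08 on those of 6 h, and 2.57, 1.94 and 2.40 on those of 9 h. Replicate 2 of 9 h was no higher than 1 h replicate 3, so the groups overlapped and the difference of 0.56 ± 0.21 was not called (adjusted P-value 0.0666), although 4 of 36 alternatives called it. None of the 3 was called against 0 h at any time (limma), although 2 of the 3 at 1 h, and 1 each at 0.5 h and 9 h, reached an unadjusted P-value under 0.05. Of 35 alternatives, 4 called Psmb10 lower at 1 h (differences to -0.56) and 4 called it higher at 9 h, among them quantile normalization, the deposited matrix and cyclic loess (0.44 to 0.45), while 1 called Psmb9 lower at 1 h. At 1 h the 3 differed from 0 h by -0.30 to -0.49, with all arrays below those of 0 h. For Psmb8 that gap was narrow, 1.953 at 1 h against 1.957 at 0 h for the nearest arrays, and its difference of -0.30 was -0.19 without replicate 1 of 1 h. The share of all probes that lay below 0 h in this way at 1 h was not counted. At 0.5 h it was 14.8%, and 23.9% of the 10703 brightest.

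Of the constitutive subunits that these replace, Psmb5 and Psmb6 were called lower at 0.5 h and Psmb7 was called higher at 9 h than at 1 h. Psmb5 read 4.67, 4.74 and 4.70 on the 0 h arrays, 4.30, 4.38 and 4.31 on those of 0.5 h, 4.59, 4.58 and 4.32 on those of 1 h and 4.56, 4.51 and 4.61 on those of 9 h. Psmb6 read 3.24, 3.13 and 3.09 on the 0 h arrays, 2.81, 2.91 and 2.82 on those of 0.5 h, 2.89, 2.92 and 2.86 on those of 6 h and 3.07, 3.05 and 3.12 on those of 9 h. Both stood lowest at 0.5 h, where no array overlapped 0 h. Psmb5 fell by 0.37 ± 0.09 at 0.5 h (adjusted P-value 0.0227) and Psmb6 by 0.31 ± 0.08 (0.0457), and neither call was kept within the first scan day alone, a fit with fewer arrays. The call of Psmb5 was also lost without any of 4 single arrays and that of Psmb6 without any of 15. Psmb6 was also called lower at 6 h (-0.27 ± 0.08, adjusted P-value 0.0303), lost without any of 5 single arrays, and had a difference of -0.08 ± 0.08 from 0 h at 9 h. Both calls of Psmb6 were also lost with normexp, quantile normalization, the deposited matrix and cyclic loess, the difference at 6 h being as small as -0.16, and that of Psmb5 with normexp. Psmb7 read 3.56, 3.68 and 3.29 on the 1 h arrays and 3.77, 3.80 and 4.01 on those of 9 h, and rose by 0.35 ± 0.11 (adjusted P-value 0.0272), a call lost without replicate 1 or 3 of 1 h or replicate 3 of 9 h, with normexp, with the shift to the median and with a block by replicate number.

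Whether each immunoproteasome subunit moved against the subunit it replaces was tested on their log2 ratio within an array, the 9 arrays of 3 h to 9 h against the 9 of 0 h to 1 h, with an exact two-sided permutation test over 48620 arrangements and adjustment over the 3 pairs. The ratio of Psmb9 to Psmb6 was higher by 0.34 at the later times (P-value 0.0119, adjusted 0.0357), and this no longer passed when any of 12 of the 18 single arrays was left out (adjusted P-values up to 0.0708). The test exchanges arrays freely and takes no account of their grouping in 6 time-points, whose means also differed within each side. Relative to 0 h its mean was -0.34 at 1 h, then 0.15, 0.23 and 0.15 at the later times. This difference was 0.27 with normexp background correction (adjusted P-value 0.138), and 0.53 within the second scan day, 3 h to 9 h against 1 h (adjusted P-value 0.0545). The ratio of Psmb8 to Psmb5 differed by 0.15 (P-value 0.298, adjusted 0.447) and that of Psmb10 to Psmb7 by 0.03 (P-value 0.747, adjusted 0.747). The ratio of Psmb10 to Psmb7 was lowest at 3 h (-0.38) and 0.10 at 9 h, and that of Psmb8 to Psmb5 was -0.10 at 1 h and 0.40 at 9 h. The plots by array show the spread behind these ratios.

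**Figure D2:**
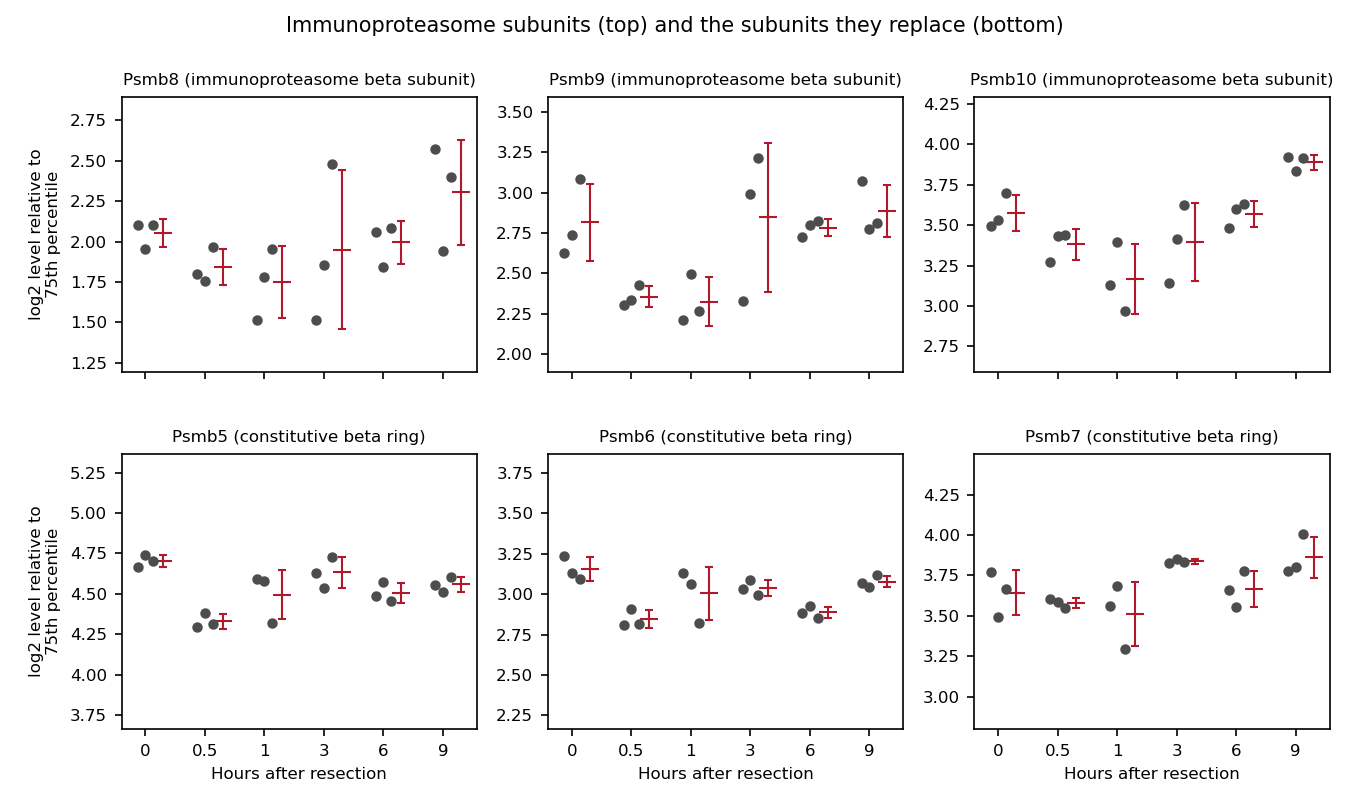
Log2 level relative to the array's 75th percentile (vertical axes, each spanning 1.7 units) against hours after resection (ordered, not to scale) for Psmb8, Psmb9 and Psmb10 (top) and Psmb5, Psmb6 and Psmb7 (bottom). Grey points are arrays, and red bars give the mean and SD of 3 arrays. Psmb10 reaches 3.84 to 3.92 at 9 h, above its other 15 arrays, while Psmb8 and Psmb9 spread widely at 3 h.

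Markers of neutrophils and of leukocytes in general rose between 0 h or 1 h and 9 h, when no marker of dendritic and other antigen presenting cells was called higher. Beside the marker counts stand 15.6% of all probes called higher and 14.8% lower at 9 h against 0 h, 11.8% and 13.4% at 9 h against 1 h, and, of the 10703 brightest probes, 13.7% and 25.3% at 9 h against 0 h. Of 6 neutrophil markers on the array, all 6 were called higher at 9 h than at 0 h and than at 1 h, and their summed linear signal, relative to the 75th percentile, was 0.815 to 1.27 at 0 h, 2.21 to 4.08 at 1 h and 17.7 to 21.3 at 9 h. Of 4 general leukocyte markers 3 were called higher at 9 h against either time, with sums of 32.2 to 46.4 at 0 h, 29.7 to 42.8 at 1 h and 45.1 to 68.5 at 9 h. Macrophage markers summed to 46.7 to 53.0 at 0 h, 36.5 to 44.1 at 1 h and 105.2 to 130 at 9 h, with 3 of 8 called higher and 1 lower at 9 h against 0 h, and 5 of 8 higher against 1 h. Of 5 tested T cell markers 3 were called higher at 9 h than at 0 h and 2 than at 1 h, with sums of 1.16 to 1.41 at 0 h and 1.48 to 2.52 at 9 h. Among lymphocyte markers Cd3e was well above background on 2 arrays and Ms4a1 on 3. Of 5 dendritic and antigen presenting cell markers none was called higher and 2 lower at 9 h against 0 h, and 1, Ciita, was called higher at 6 h against 1 h, with sums of 44.6 to 52.0 at 0 h and 32.0 to 35.2 at 9 h. Of 5 fibroblast markers 4 were called lower and none higher (median -0.50). Of 8 Schwann cell markers 4 were called lower at 9 h than at 0 h and none higher, with sums of 846 to 1007 at 0 h against 662 to 757 at 9 h. Skeletal muscle RNA had a wide range, 88.8 to 1162 at 0 h and 0.99 to 113 at 9 h, with none of its 5 markers called and none at an unadjusted P-value under 0.05. The part of these cells in the proteasome values was not tested.

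Of the alpha ring, the outer ring through which substrates enter, 1 of 7 members was called higher at 9 h against 0 h and 3 against 1 h, beside 15.6% and 11.8% of all probes. Psma2 read 2.56, 2.53 and 2.69 on the 0 h arrays, 2.93, 2.99 and 3.03 on those of 0.5 h, 2.83, 2.80 and 2.42 on those of 1 h, and 2.95, 3.13 and 2.87 on those of 9 h. It rose by 0.39 ± 0.11 from 0 h to 9 h (1.31-fold, adjusted P-value 0.0139), a call lost without replicate 1 or 2 of 0 h or replicate 2 of 9 h, with normexp and with the shift to the median (0.22). It was one of 2 members whose difference at 0.5 h was 0.39, the other being Psmd6, neither of them called, although 9 of 36 alternatives called Psma2 higher there (adjusted P-value 0.0216 with quantile normalization). At that time the ring's median was -0.13. Psma1, Psma3 and Psma5 were the 3 members of the ring called higher at 9 h than at 1 h, by 0.43, 0.66 and 0.33.

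In the constitutive beta ring Psmb2 was called higher at 6 h and 9 h. Psmb2 read 4.12, 4.14 and 4.18 on the 0 h arrays, 4.07, 4.20 and 4.09 on those of 1 h, 4.30, 4.41 and 4.38 on those of 3 h, 4.35, 4.41 and 4.32 on those of 6 h and 4.36, 4.31 and 4.45 on those of 9 h. Every array from 3 h on lay above every earlier one, and the difference from 0 h was 0.22 ± 0.07 at 6 h (adjusted P-value 0.0391) and 0.23 ± 0.07 at 9 h (adjusted P-value 0.0237). The call at 6 h was lost without any of 15 single arrays and that at 9 h without any array of 0 h or replicate 1 or 3 of 9 h. Both were also lost with normexp and with the shift to the median, where the differences were 0.07 at 6 h and 0.06 at 9 h. That at 6 h was lost with a block by replicate number too. Psmb4 and Psmb7 were also called higher at 9 h than at 1 h, by 0.39 and 0.35. Psmb2, Psmb5 and Psmb6 held TGACNNNGC, the core of the antioxidant response element through which Nfe2l1 and Nfe2l2 act, close to their start, and at 6 h Psmb2 was called higher than at 0 h, Psmb6 lower and Psmb5 neither. Their stretches, cut as before and with that core in capitals, lie at chr5:144254928-144255077, plus strand, chr15:32047360-32047509, minus strand, and chr10:55737758-55737907, plus strand.
Psmb2: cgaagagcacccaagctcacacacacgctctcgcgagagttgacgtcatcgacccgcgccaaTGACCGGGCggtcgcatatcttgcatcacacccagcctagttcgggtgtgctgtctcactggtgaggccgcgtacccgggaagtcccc
Psmb5: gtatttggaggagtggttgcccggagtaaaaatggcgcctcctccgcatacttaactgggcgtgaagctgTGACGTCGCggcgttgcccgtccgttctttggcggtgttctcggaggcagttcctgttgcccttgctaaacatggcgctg
Psmb6: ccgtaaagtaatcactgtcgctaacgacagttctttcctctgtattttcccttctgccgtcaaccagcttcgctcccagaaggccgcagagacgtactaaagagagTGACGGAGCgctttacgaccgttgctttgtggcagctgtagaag
The core began at positions -68, -60 and -24 from the start, and in Psmb2 its first base is also the last of a CCAAT. In all, 8 of 40 members held the core TGACNNNGC on either strand (20%), beside 12.1% of all promoters. The others were Psma3, Psmd1, Psmd3, Psmd9 and Psme4. None of these was called at 6 h against 0 h, and Psmd3 was called higher at 9 h. CCAAT, the box bound by NF-Y, was held by 19 of 40 members (47.5%, all promoters 37.5%). A match of letters is not evidence of binding.

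The 19S cap held the members with the 2 largest differences at 9 h against 0 h, Psmd3 and Psmd6. Of 11 subunits without ATPase activity 5 were called higher at 9 h than at 0 h and 7 against 1 h, with medians of 0.26 and 0.33, and none was called lower, beside 15.6% and 11.8% of all probes higher and 14.8% and 13.4% lower. Of 6 ATPases none was called by limma on its brightest probe at 9 h against 0 h (median 0.01, 0 of 6 at an unadjusted P-value under 0.05) and 1, Psmc4, against 1 h (0.38). A second, dimmer probe of Psmc4 was called higher at 9 h against 0 h (0.47, limma adjusted P-value 0.000241). The 5 called subunits had mean levels of 0.85 to 2.67 and the 6 ATPases of 2.84 to 5.36, and dimmer probes differed more at large. The part of brightness in this split was not tested. On their brightest probes the ATPases other than Psmc4 stayed between -0.22 and 0.10 at every time against 0 h.

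Psmd6 and Psmd3 are scaffold subunits of the lid, the outer part of the cap. Psmd6 read 0.49, 0.35 and 0.70 on the 0 h arrays, 1.04, 0.83 and 0.85 on those of 0.5 h, 0.82, 0.61 and -0.02 on those of 1 h, 0.84, 0.79 and 0.86 on those of 3 h, 1.03, 1.16 and 1.06 on those of 6 h, and 1.39, 1.55 and 1.04 on those of 9 h. At every later time but 1 h all 3 of its arrays lay above all of 0 h. The difference from 0 h was 0.57 ± 0.18 at 6 h (1.48-fold, adjusted P-value 0.0311) and 0.81 ± 0.18 at 9 h (1.75-fold, adjusted P-value 0.00374), and the call at 9 h was lost under 1 of 35 alternatives, the shift to the median. That at 6 h was lost without replicate 1 or 2 of 0 h or any array of 6 h, with normexp and with the shift to the median. Psmd3 read 2.0, 1.71 and 1.79 on the 0 h arrays, 2.02, 1.92 and 2.91 on those of 1 h, 1.89, 1.93 and 2.40 on those of 6 h, and 2.73, 2.58 and 2.75 on those of 9 h. Its rise over 0 h at 9 h was 0.85 ± 0.23 (1.80-fold, adjusted P-value 0.012), and this call was lost without replicate 2 of 0 h, with normexp and with the shift to the median. Against 1 h it differed by 0.40 ± 0.23 (adjusted P-value 0.231), replicate 3 of 1 h being higher than any array of 9 h. This difference was 0.71 without that array and called (adjusted P-value 0.0115), called too with array weights (0.67), and 0.27 and 0.22 without replicate 1 and replicate 2 of 1 h.

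Psmd8, another lid subunit, read 2.65, 2.60 and 2.66 on the 0 h arrays, 2.44, 2.44 and 2.38 on those of 0.5 h, 2.81, 2.81 and 2.72 on those of 6 h, and 2.88, 2.88 and 3.03 on those of 9 h. It was below 0 h on all arrays of 0.5 h and above it on all of 6 h and 9 h. The difference at 9 h was 0.29 ± 0.08 (1.23-fold, adjusted P-value 0.0114), lost without replicate 3 of 9 h, with normexp and with the shift to the median, where it was 0.12. The others called higher at 9 h were Psmd7, with 0.25, and Psmd13, with 0.28, also lid subunits. Psmd11, Psmd12 and Psmd14, the deubiquitylase of the lid, were called higher at 9 h against 1 h, by 0.46, 0.40 and 0.50, and not called against 0 h, with 0.26, 0.11 and 0.30. Psmd1 and Psmd2, the scaffolds of the base, differed by 0.07 and 0.09 at 9 h against 0 h and the ubiquitin receptor Psmd4 by -0.05, none of them called.

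**Figure D3:**
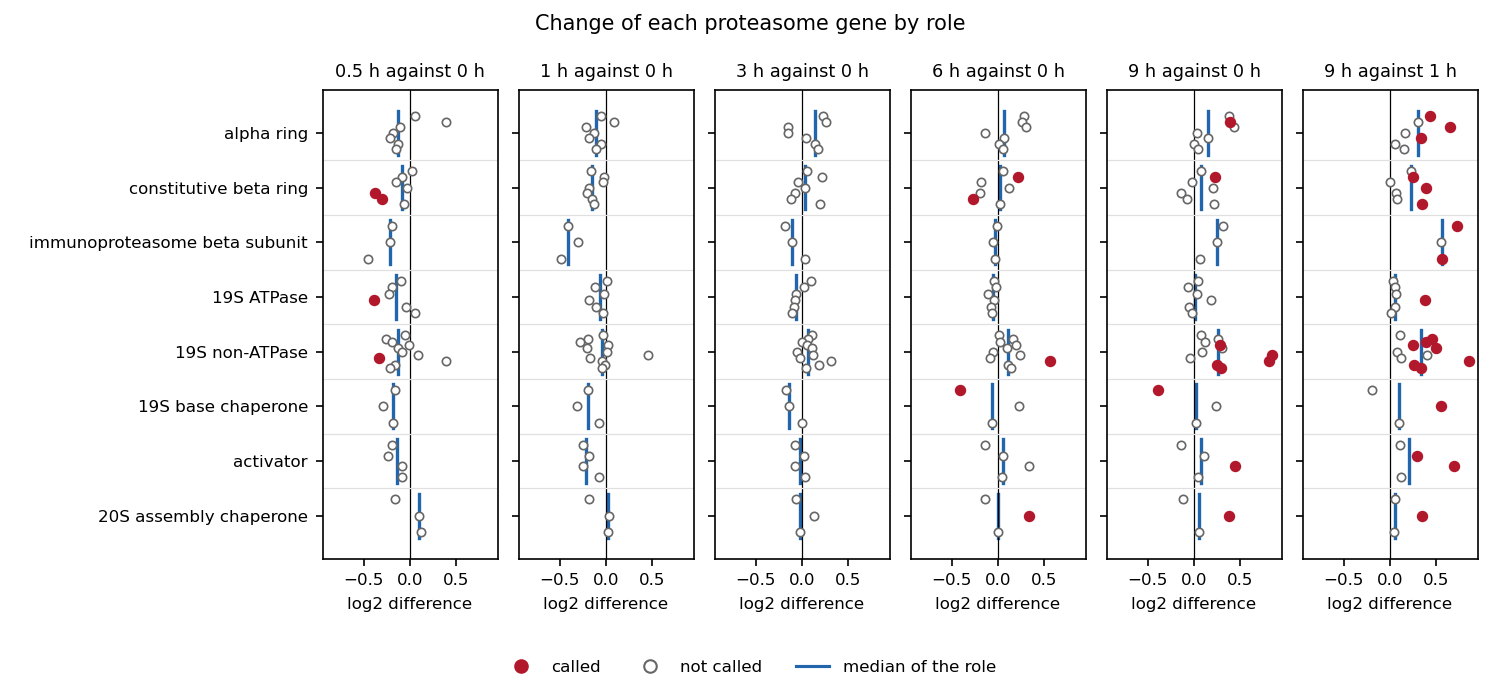
Log2 difference of each of the 44 tested members (points) by role (rows) in 6 comparisons (panels). Red points passed both thresholds, open points did not, and blue lines are the median of a role. At 9 h against 0 h the 5 called non-ATPase subunits reach 0.85, and against 1 h 20 red points lie right of 0 and none left.

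Among the activators, which open the core without ubiquitin, Psme3 rose and its interferon-linked relatives were not called against 0 h. Psme3, the activator found in the nucleus, read 2.11, 2.14 and 2.0 on the 0 h arrays, 1.94, 1.89 and 1.68 on those of 1 h, 1.95, 2.0 and 2.07 on those of 3 h, 2.36, 2.46 and 2.43 on those of 6 h, and 2.65, 2.20 and 2.75 on those of 9 h. It lay below 0 h at 1 h and above it at 6 h and 9 h, without overlap. The difference was 0.45 ± 0.12 at 9 h against 0 h (1.37-fold, adjusted P-value 0.0129), lost when replicate 3 of 0 h, or either replicate 1 or replicate 3 of 9 h, was left out, with normexp and with the shift to the median (0.28). Against 1 h it was 0.70 ± 0.12 (1.62-fold, adjusted P-value 0.001), lost under 1 of 36 alternatives, the fit of the arrays of the contrast alone. Psme1 read 3.61, 3.55 and 3.83 on the 0 h arrays and 3.56, 3.48 and 3.54 on those of 9 h, a difference of -0.14 ± 0.12 (adjusted P-value 0.386). Psme2 read 3.39, 3.45 and 3.60 on the 0 h arrays, 3.40, 3.34 and 3.15 on those of 1 h and 3.70, 3.55 and 3.51 on those of 9 h, and was called higher at 9 h against 1 h (0.29 ± 0.09, adjusted P-value 0.0317), a call lost without any of 10 single arrays, with normexp (0.56), with the shift to the median and with a block by replicate number. Array weights called it lower at 0.5 h against 0 h (-0.27).

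The chaperones moved both ways. Psmg2, which pairs with Psmg1 to build the alpha ring, read 0.08, 0.11 and 0.03 on the 0 h arrays, 0.45, 0.33 and 0.46 on those of 6 h, and 0.45, 0.37 and 0.54 on those of 9 h. It was higher by 0.34 ± 0.09 at 6 h (1.26-fold, adjusted P-value 0.0104) and by 0.38 ± 0.09 at 9 h (1.30-fold, adjusted P-value 0.00434), and kept both calls whichever array was left out but not when arrays were shifted to their median, nor that at 6 h with normexp. Its partner Psmg1 differed by -0.14 and -0.12, and Psmg4 by 0.00 and 0.06, none called. Psmd10, the base chaperone gankyrin, read 1.96, 2.23 and 2.26 on the 0 h arrays, 1.74, 1.74 and 1.73 on those of 6 h, and 1.73, 1.77 and 1.79 on those of 9 h. It was the only member called lower at 9 h on this scale, by -0.39 ± 0.12 (adjusted P-value 0.0244) after -0.42 ± 0.12 at 6 h (adjusted P-value 0.023), and both calls were lost without replicate 2 or 3 of 0 h or any single array of their own time, and both with normexp. That at 9 h was also lost under quantile normalization, the deposited matrix, cyclic loess and a block by replicate number. Psmd5, another base chaperone, rose by 0.55 from 1 h to 9 h, and Psmd9 differed by 0.10. The plots of these members give the array values.

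**Figure D4:**
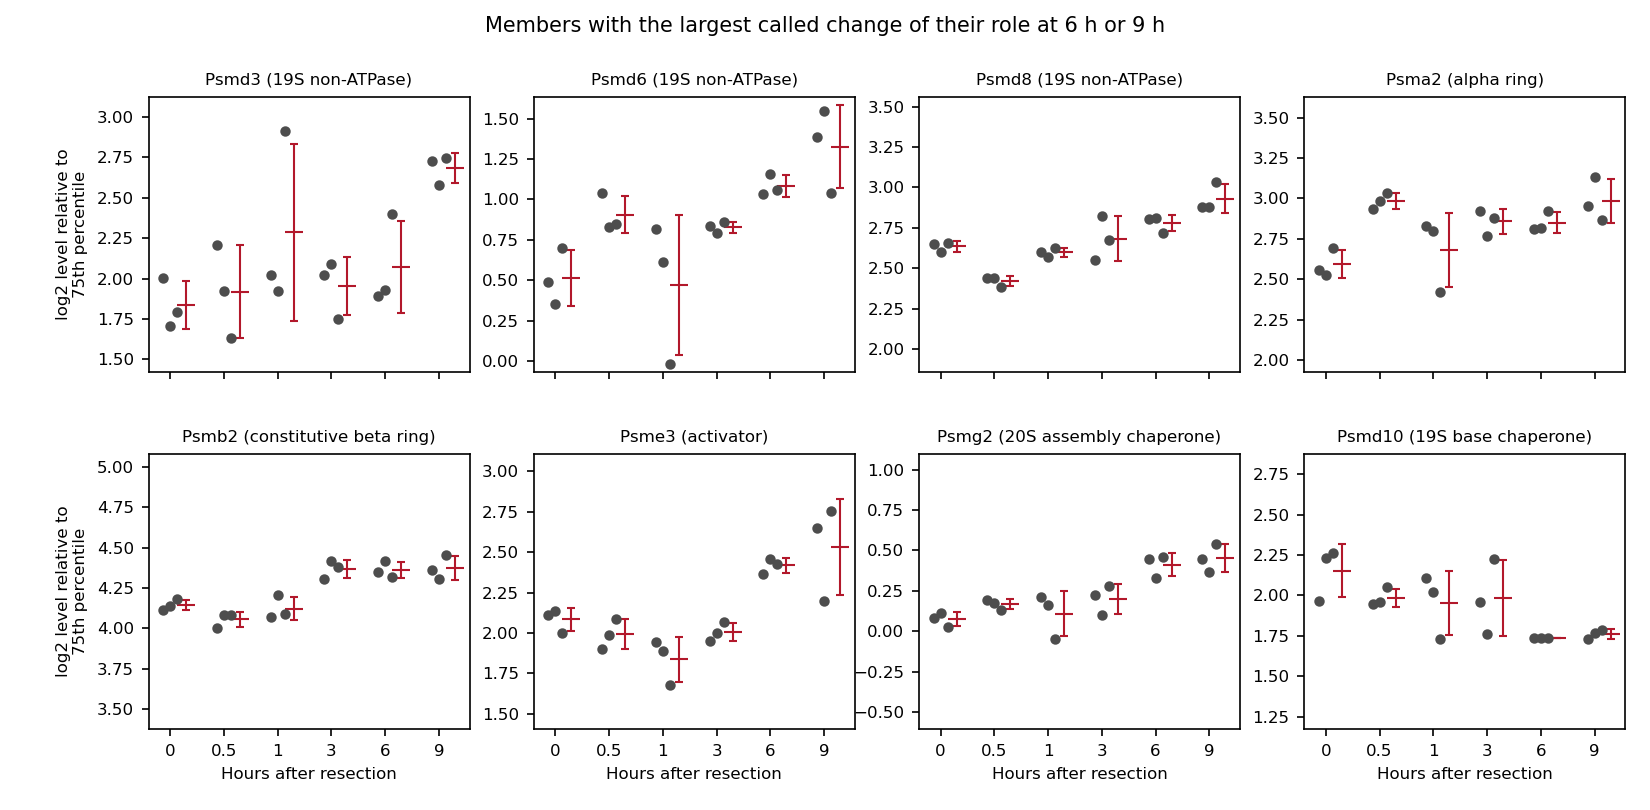
Log2 level relative to the array's 75th percentile (vertical axes, each spanning 1.7 units) against hours after resection (ordered, not to scale) for the members with the largest called changes of their role at 6 h or 9 h. Psmb6, also among these and called lower at 6 h, is plotted beside Psmb5 and Psmb7 instead. Grey points are arrays, and red bars give the mean and SD of 3 arrays. Psmd10 sits at 1.73 to 1.79 on the 6 arrays of 6 h and 9 h, and replicate 3 of 1 h is the highest array of Psmd3 and the lowest of Psmd6.

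Of the 45 members 7 have more than 1 probe, and in these the brightest probe had the lowest difference at 9 h against 0 h. At 9 h against 0 h all 9 dimmer probes had a larger difference than the brightest probe of their gene, by a median of 0.29, and 3 of them were called higher. Psmc4, whose brightest probe differed by 0.19 and was not called, had a second probe at 0.47 (adjusted P-value 0.000241). The 3 probes of Psmd7 gave 0.25, 0.37 and 0.62, all called. Psmd2 gave 0.09 and 0.47, Psme4 0.04 and 0.36, Psmd1 0.07 and 0.23 and Psma6 -0.0034 and 0.12, with none called. Psmc6 gave -0.02 and 0.21, not called, and its dimmest probe, well above background on 7 arrays only, gave 0.75 (adjusted P-value 0.175). The same order held for probes at large, where the median difference at 9 h was -0.12 among the brightest 10703 probes and 0.31 among the dimmest 10703. At 9 h against 1 h, 8 of the 9 dimmer probes had a larger difference than the brightest and 1 a smaller one. There the second probe of Psme4 was called higher (0.65, limma adjusted P-value 0.00413), while its brightest probe was not (0.12).

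**Figure D5:**
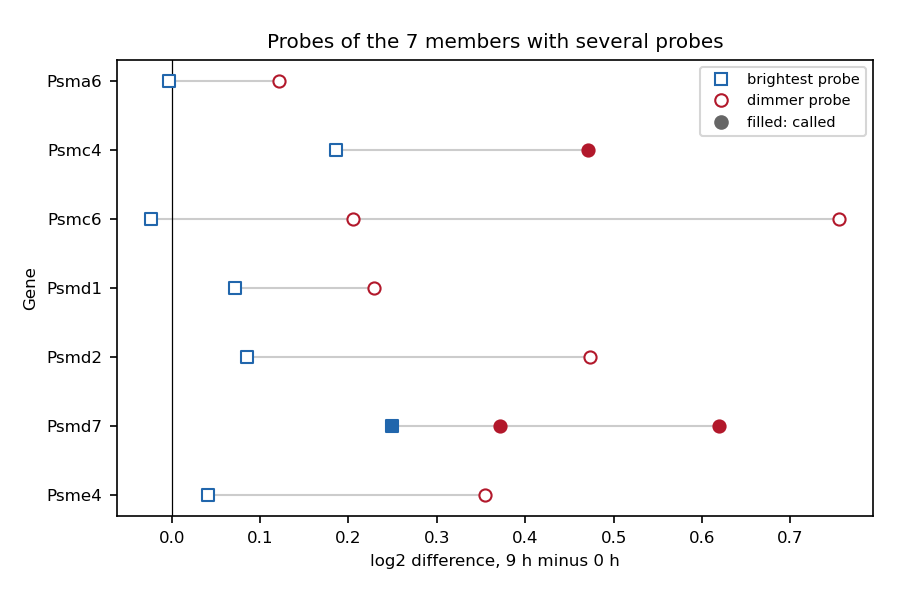
Log2 difference of 9 h minus 0 h (horizontal axis) for every probe of the 7 members with several probes (rows). Blue squares are the brightest probe of a gene, red circles the dimmer ones, and filled symbols were called. All 9 circles lie right of the square of their gene.

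Genes that work with the proteasome were read from lists. Of 17 partners on the array, 5 were called higher at 9 h than at 0 h and none lower (median 0.18). Beside the counts of this and the next lists at 9 h against 0 h stand 15.6% of all probes called higher and 14.8% lower. Adrm1, the ubiquitin receptor Rpn13 of the cap and a subunit outside the Psm names, rose by 0.90 ± 0.21 (adjusted P-value 0.00491), from between -1.06 and -0.78 at 0 h to between -0.41 and 0.26 at 9 h. The shuttle factor Ubqln2 rose by 0.84, the stress-induced cap binder Zfand2a by 0.65 and Akirin2, which carries proteasomes into the nucleus, by 0.46. The small cap subunit Sem1 and the core maturation factor Pomp differed by -0.08 and 0.04 and were not called.

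Of 12 genes of ubiquitin and its conjugation 4 were called higher and 3 lower at 9 h against 0 h, with a median of -0.03. The polyubiquitin gene Ubb fell by 0.47, while the conjugating enzymes Ube2n and Ube2d3 rose by 0.48 and 0.46. Probes of the ubiquitin genes can share sequence with one another, so their split is uncertain. Of 11 genes of the Nfe2l1 and Nfe2l2 axis 5 were called higher and 1 lower. Hmox1, the heme-degrading target of Nfe2l2, rose by 3.55 ± 0.30 (adjusted P-value 2.34e-06), the partner Mafk by 0.72 and Ddi2, the protease that activates Nfe2l1, by 0.55. Gclm and Maff were also called, but Gclm was well above background on no array of 0 h and Maff on 1. Nfe2l1 and Nfe2l2 themselves differed by 0.03 and 0.17 and were not called.

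Of 10 genes of MHC class I antigen presentation none was called at 6 h or 9 h against 0 h, or at 9 h against 1 h (limma; 0, 0 and 1 of 10 at an unadjusted P-value under 0.05). The peptide transporter Tap1, whose gene adjoins Psmb9, differed by 0.59 ± 0.30 at 9 h against 0 h (adjusted P-value 0.144), and B2m by -0.25 ± 0.14. Of 14 interferon genes tested 3 were called higher and none lower at 3 h against 0 h, beside 7.2% and 6.41% of all probes (median 0.37). At 9 h 1 was called against 0 h, the receptor chain Ifngr2, with 0.50 ± 0.12 (adjusted P-value 0.0054). Ifng itself was well above background on none of the 18 arrays. At 9 h against 1 h 3 of the 14 were called higher and 1 lower, beside 11.8% and 13.4% of all probes.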

How the data were processed

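Total RNA was labelled with Cy3 and hybridised to 1-colour Agilent rat arrays, and the authors deposited scanner output of Feature Extraction 10.5.1.1 for 18 arrays, whose processed signal is an intensity on a linear scale after background subtraction. The deposited series matrix holds log2 values of the same arrays, whose normalization is not given in the sources used here, and served as an alternative. After removal of control spots and spots flagged as outliers, spots of a probe were averaged (41012 probes), and log2 signal minus the 75th percentile of the array was used. A probe was tested if at some time-point all 3 arrays read it well above background (32109 probes), with limma 3.58.1 in R 4.3.3, with all 6 time-points in the fit (prior degrees of freedom 1.94). No spot was saturated, and precision is limited by having 3 arrays per time-point.

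The rule for genes given array by array took, in each role, up to 3 members with the largest change among those called at 6 h or 9 h, then the 3 immunoproteasome subunits, the 3 subunits they replace, and Psme1 and Psme2. Of a list up to 4 called members with the largest change were named. Other members of the lists named with values (Sem1, Pomp, Nfe2l1, Nfe2l2, Tap1, B2m and Ifng) were chosen after their values were seen. The members, the lists and the times set against each other in the ratio test were chosen with earlier results of these data known. Of the 45 members 41 matched a RefSeq symbol through their accession, all with the same symbol. RefSeq has 3 more such genes, Psmf1, Psma8 and Psmg3, that the array's names do not give and that were not included. Probe coordinates are those of the files (rn4), promoters those of RefSeq (GRCr8), searched on both strands. Alternatives were other scalings, filters, blocks, weights, subsets of arrays, thresholds and probes. Some genes of the lists and 1 searched motif are not reported here.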

Additional observations from a re-analysis of the deposited data

How the results depend on the processing

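Under the alternatives none of the members given array by array changed the direction of a called difference. The other members named with a call were not followed gene by gene. The counts of members called, given for each later time in order against 0 h, then for each time after 1 h against 1 h, then for the F-test, were 4, 0, 0, 5, 10, 2, 8, 20 and 12. Leaving out 1 array in turn gave 0 to 6, 0 to 2, 0 to 2, 1 to 6, 4 to 11, 0 to 4, 2 to 10, 12 to 21 and 9 to 17. With normexp background correction the counts fell to 0 at 0.5 h, 0 at 6 h and 2 at 9 h, to 0, 2 and 8 against 1 h and to 3 by the F-test, and the median of all probes moved by up to 0.44. With quantile normalization they were 2 at 3 h, 10 at 6 h and 18 at 9 h (all higher), 1 and 13 at 3 h and 6 h against 1 h, and 23 by the F-test. The deposited matrix gave 2, 10, 19 (all higher), 1, 13 and 23 for the same comparisons, and cyclic loess, chosen after seeing the data, 3, 10, 21 (all higher), 1, 15 and 23. Shifting arrays to their median gave 7, 2, 3 and 1 (lower) at 0.5 h and 1 h, then 6 h and 9 h, 0, 3 and 8 against 1 h and 6 by the F-test, with the median of all probes at -0.16 at 0.5 h. Array weights gave 7, 1 and 1 at 0.5 h, 1 h and 3 h and 25 by the F-test, and a trended, robust prior gave 1 at 1 h, 1 at 3 h and 23 by the F-test. The adjusted P-value alone gave 19 by the F-test, the fit without a filter 0 at 3 h against 1 h, and probes well above background on all arrays 1 at 3 h.

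In fits with fewer arrays, the first scan day gave 0 at 0.5 h, the second 0, 5 and 6 against 1 h, and the arrays of a contrast alone 0, 3 and 4 at 0.5 h, 6 h and 9 h and 0, 2 and 2 against 1 h. A change of at least 1.5-fold left 0, 0 and 2 at 0.5 h, 6 h and 9 h and 0, 1 and 4 against 1 h. Chosen after seeing the data, the dimmest tested probe gave 8 at 6 h, and leaving out replicate 1 of 6 h and replicate 3 of 9 h together gave 2 and 3 at 6 h and 9 h and 0, 3 and 8 against 1 h. Arrays of the same number shared only a number (median correlation of their deviations 0.07, from -0.26 to 0.56 over 45 pairs), and the replicate block gave 8 at 9 h, 17 at 9 h against 1 h and 11 by the F-test. The ratio of Psmb9 to Psmb6 was 0.27 with normexp and 0.53 in the second scan day, where it no longer passed. It was 0.29 to 0.41 without 1 array and no longer passed without any of 12 of the 18. That of Psmb8 to Psmb5 ranged from 0.08 to 0.23 and that of Psmb10 to Psmb7 from -0.01 to 0.10 without 1 array, and was -0.04 with normexp. The cause of these differences was not tested.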
